A study of Mus musculus with 14 samples.

Results

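The cytosolic ribosomal protein genes are the set whose products make up the protein part of the large and small subunits of the ribosome outside mitochondria. They were taken here as all genes whose symbol begins with Rpl or Rps followed by a number (with a closing a, l or x allowed), together with the stalk proteins Rplp0, Rplp1 and Rplp2 and the laminin receptor gene Rpsa. Of 83 symbols that fit this rule, 80 had a probe on the array, which held 19751 named genes in all, and 3 (Rpl32l, Rpl6l and Rps23) had none. The 80 genes comprised 43 of the large subunit, 29 of the small subunit, the 3 stalk proteins and 5 paralogues (Rpl3l, Rpl10l, Rpl39l, Rps27l and Rps4l). They were represented by 165 probes, and the brightest probe of each gene was used.

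Ribosomal proteins are made in equal amounts with ribosomal RNA, and their mRNAs are among the most abundant in dividing and secretory cells. Many of these mRNAs begin with a run of pyrimidines, the terminal oligopyrimidine tract, through which mTORC1 controls their translation. Assembly of a ribosome also needs RNA polymerase I, which transcribes the ribosomal RNA, and a large group of nucleolar assembly factors. In rodents the liver is still growing at weaning, with many dividing hepatocytes, and division slows toward adulthood.

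Liver RNA was examined from male (M) and female (F) CD-1 mice aged 3, 4 and 8 wk. All animals were of this outbred strain, and no allele or agent is named in the labels. Each array compared a pool from 5 mice (3 wk) or 6 mice (4 and 8 wk) with another such pool, in 2 colours on an Agilent mouse array. There were 3 comparisons of the sexes (M8/F8, M4/F4 and M3/F3) and 4 of age (F8/F3 and F8/F4 in females, M8/M3 and M8/M4 in males), each with 2 arrays, separate pools and exchanged dyes. A value is the log2 of the first-named pool over the second, so that a log2 ratio of -1 would be a halving. Replicate number, pool, slide and dye orientation changed together within a comparison and cannot be told apart. The slides were scanned on 2 days, with the sex comparisons and M8/M3 on the first day and the remaining age comparisons on the second.

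Between 55.2% and 77.2% of the spots on an array were well above background in a channel, and no spot was saturated. The hepatocyte markers (8 of 8, among them Alb, Ttr and Apoa1) were well above background in all 28 channels. Male-specific Ddx3y and female-specific Xist differed in the labelled direction on all 6 arrays that set males against females. Of the 80 ribosomal protein genes, 77 were well above background in both channels of all 14 arrays. Rpl39l was so in both arrays only for M3 against M8, with processed signals of 19.5 and 15.1 in M3, and Rpl3l and Rpl10l were not well above background in both arrays of a group in any comparison. The signal of the 77 genes averaged 81.6 (Rpl21) to 119157 (Rpl10), which reflects the probe as well as the gene, so levels are not compared between genes.

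RefSeq start sites (build GRCm38.p6) were available for 59 of the 80 genes, and the bases around the start are shown because the tract at the start of the mRNA is the feature these genes are known to share. A run of at least 8 consecutive C or T on the strand of the gene, overlapping the 20 bases on either side of the start, was found in 32 of the 59 genes (54.2%). Over all genes with an entry it was found in 6399 of 27025 (23.7%). Only the strand of the gene was searched, and annotated starts may lie some bases away from the start used in liver. The lines below run from 40 bases before the start to 20 bases after it, and the run is in capitals. Of the 12 genes lower at 8 wk in every age comparison in the full fit, a list whose stability is described further on, 9 had an entry, 4 with the run and 5 without it. Those with the run were Rps12 (chr10:23787190-23787249, minus strand), Rpl13 (chr8:123102310-123102369, plus strand), Rps15a (chr7:118116128-118116187, minus strand) and Rps18 (chr17:33955646-33955705, minus strand). Rpl12 (chr2:32961672-32961731, plus strand) and the X-linked Rpl36a (chrX:134585614-134585673, plus strand) are shown for those with no run of this length in the window, which were also Rps7, Rps13 and Rps16. Rpl35a (chr16:33056442-33056501, plus strand, the entry with the longest run of 3) and Rps27 (chr3:90213629-90213688, minus strand) behaved otherwise, as described further on.
Rps12: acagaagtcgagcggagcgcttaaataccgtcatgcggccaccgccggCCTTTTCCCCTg
Rpl13: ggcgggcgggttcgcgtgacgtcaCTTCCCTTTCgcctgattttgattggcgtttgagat
Rps15a: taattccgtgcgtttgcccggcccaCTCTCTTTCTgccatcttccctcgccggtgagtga
Rps18: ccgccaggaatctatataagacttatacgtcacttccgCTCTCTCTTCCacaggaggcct
Rpl12: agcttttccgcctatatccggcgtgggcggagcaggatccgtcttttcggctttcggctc
Rpl36a: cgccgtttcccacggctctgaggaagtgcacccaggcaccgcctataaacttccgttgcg
Rpl35a: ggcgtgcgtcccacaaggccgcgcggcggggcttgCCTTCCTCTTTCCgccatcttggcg
Rps27: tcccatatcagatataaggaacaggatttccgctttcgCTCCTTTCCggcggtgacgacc

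A match to these letters is a description of the window and not of a functional site. In F8/F3 the 31 measured genes with the run had a median log2 ratio of -0.20, with 15 lower. The 25 without it had a median of -0.22, also with 15 lower, where 14.9% of all probes were lower. In M8/M3 the corresponding medians were -0.15 (11 of 32 lower) and -0.14 (7 of 25), against 18.2% of all probes. From 4 wk they were -0.10 (8 of 31) and -0.15 (8 of 25) in F8/F4, against 9.19%. In M8/M4 they were -0.14 (8 of 31) and -0.11 (6 of 25), against 13.1%.

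The age comparisons asked how the transcripts changed from the prepubertal liver to young adulthood in each sex. The ribosomal protein genes were slightly lower at 8 wk than at 3 or 4 wk in males and in females, and those that passed the test passed it in that direction alone. In F8/F3, 39 of 77 genes were lower (50.6%) and 0 were higher, while 14.9% of all 26061 probes tested were lower and 15.8% higher. In M8/M3, 25 of 78 were lower (32.1%) and 0 higher, against 18.2% of all probes lower and 20.7% higher. From 4 wk, 21 of 77 were lower and 0 higher in F8/F4 (27.3%, against 9.19% of all probes lower and 9.64% higher). In M8/M4, 17 of 77 were lower and 0 higher (22.1%, against 13.1% and 13.9%). The counts depended on the fit: without a dye term they were 19 in F8/F3, 13 in M8/M3, 7 in F8/F4 and 5 in M8/M4. With normexp and loess F8/F3 had 17 and F8/F4 had 6, and with the covariance of shared pools F8/F4 had 13. No share of all probes was taken under these other fits, so whether the excess over all probes remained was not tested. A gene counted as lower when its adjusted p from limma was below 0.05 and its probe was well above background in at least 1 of the groups on both arrays. The changes were small: those called ranged from -0.15 to -0.50 in F8/F3 and from -0.15 to -0.47 in M8/M3. None of the genes called passed 1.5-fold in any of these 4 comparisons, whereas 10.8% of all probes did in F8/F3, 16.8% in M8/M3, 5.41% in F8/F4 and 10.1% in M8/M4.

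The median log2 ratio of the measured genes was -0.22 in F8/F3 and -0.15 in M8/M3, and from 4 wk it was -0.13 in F8/F4 and -0.14 in M8/M4. For F8/F3 this median corresponded to levels that fell by 14.2% and for M8/M3 by 9.61%. Values were below 0 for 75 of 77 genes in F8/F3 and 70 of 78 in M8/M3, and from 4 wk for 72 of 77 in F8/F4 and 73 of 77 in M8/M4. Over all probes tested, the median lay at 0.02 in each of these comparisons, with 46.7% to 48.1% of probes below 0. The 2677 probes with a mean signal above 10000 had medians of -0.03 to -0.01. Ratios are relative to the whole labelled RNA of each pool, so fewer cells of a type and less RNA per cell cannot be told apart.

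**Figure D1:**
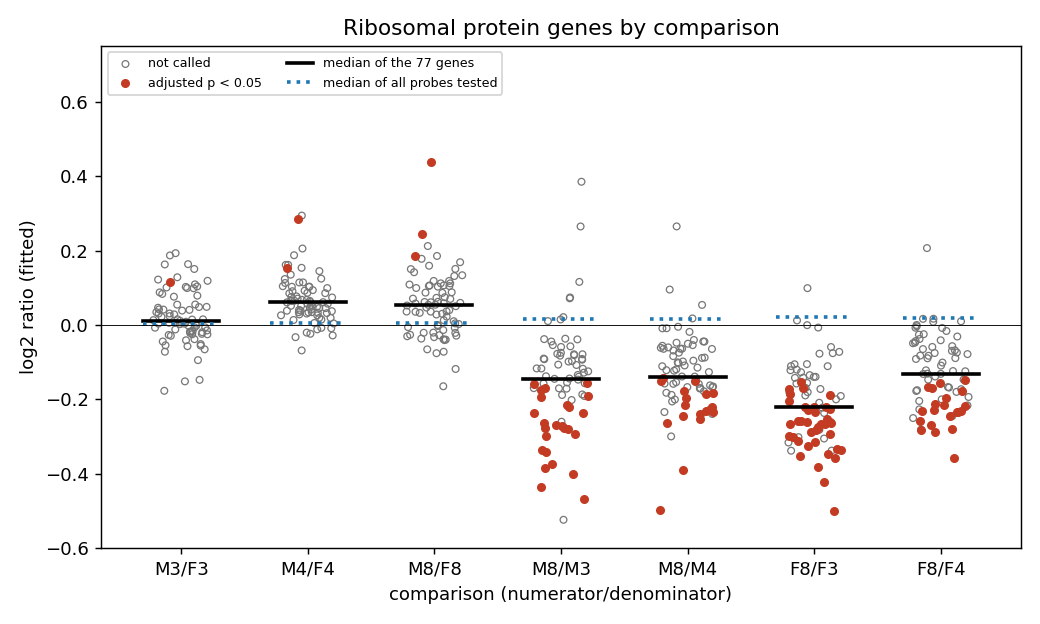
Fitted log2 ratio (y axis) of each of the 77 ribosomal protein genes well above background on all arrays, by comparison (x axis); filled points passed an adjusted p of 0.05, black bars are the medians of the 77 genes and dotted bars the medians of all probes tested. The 4 age comparisons have member medians between -0.22 and -0.13, below the 0.02 of all probes, and the 3 sex comparisons lie near 0.

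The 2 replicates of each age comparison differed in size but not in direction of the median. On replicate 1 the median of the genes was -0.12 in F8/F3, -0.10 in M8/M3, -0.07 in F8/F4 and -0.08 in M8/M4. On replicate 2 it was -0.32, -0.20, -0.24 and -0.20 in the same order, so replicate 2 lay lower in all 4. The medians of all probes on these arrays stayed between 0.01 and 0.03. Leaving out replicate 2 took the count of lower genes in F8/F3 from 39 to 11 and in F8/F4 from 21 to 1, and leaving out replicate 1 left 28 and 7. In males, 10 genes were called in M8/M3 without replicate 2 and 7 without replicate 1, and M8/M4 gave 4 in each case. These fits leave a comparison with 1 array and assume that it varies like the others. No share of all probes was taken under them, so their counts have none to be set against. With the slide as a block, the counts of lower genes were 41 in F8/F3, 24 in M8/M3, 22 in F8/F4 and 19 in M8/M4. That fit had no share of all probes beside it either.

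**Figure D2:**
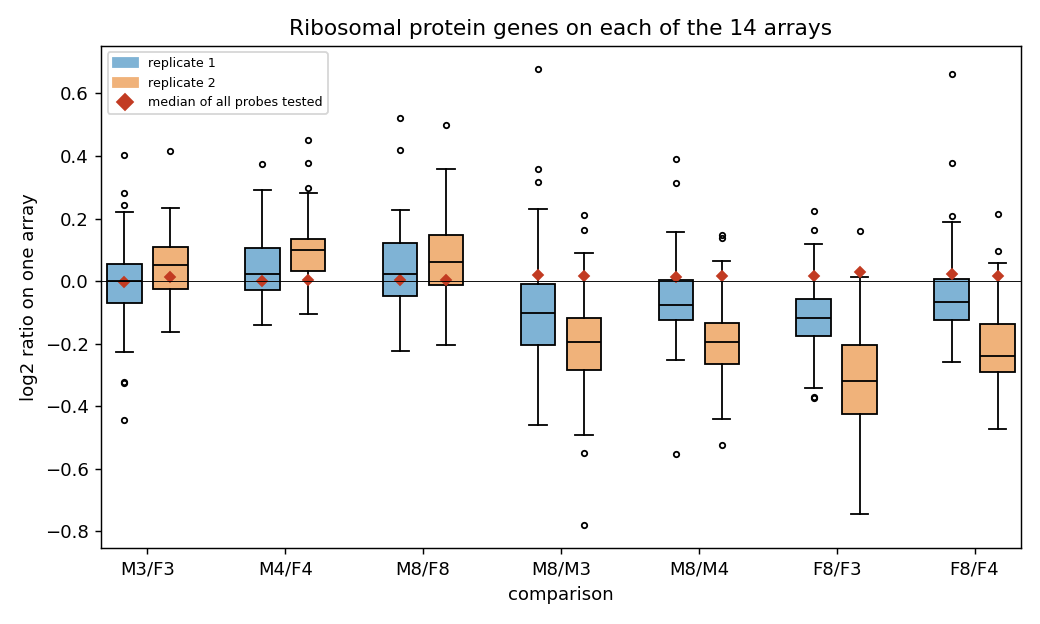
Log2 ratio (y axis) of the 77 genes on each of the 14 arrays, as boxes (median, quartiles, whiskers to 1.5 times the interquartile range, circles beyond), with replicate 1 and replicate 2 side by side for each comparison (x axis); diamonds mark the median of all probes tested. In the 4 age comparisons the replicate 2 medians (-0.20 to -0.32) lie below those of replicate 1 (-0.07 to -0.12), and all 8 lie below the diamonds.

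Of 77 genes tested in all 4 age comparisons, 12 were lower in each (15.6%, against 6.07% of all probes): Rpl3, Rpl12, Rpl13, Rpl21, Rpl29, Rpl36a, Rps7, Rps12, Rps13, Rps15a, Rps16 and Rps18. Not all of these were below 0 on both arrays of each comparison: Rpl13 read 0.02 and -0.38 in M8/M4. This list was not stable, and the share of all probes was taken in the full fit only. Leaving out 1 of the 8 age arrays at a time gave 1 to 12 genes lower in all 4, with the fewest without replicate 2 of F8/F4 (Rpl12), and 1 (Rps16) was left without the dye term, 4 with normexp and loess and 7 with the covariance of shared pools. In the full fit a further 32 genes were lower in 1 to 3 of the comparisons and 33 in none. Since M8/M3 and M8/M4 share the M8 group, and F8/F3 and F8/F4 the F8 group, being lower in both does not count as independent evidence. Over the 77 genes, 66 had fitted values below 0 in all 4 comparisons, and 41 were below 0 on all 8 arrays.

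Rps12, a small subunit protein, had the most negative fitted value in M8/M3, F8/F3 and F8/F4 among the genes called. From 3 wk its 2 arrays read -0.26 and -0.74 in females and -0.38 and -0.55 in males, and from 4 wk -0.24 and -0.47 in females and -0.25 and -0.53 in males. All 8 values were below 0, with replicate 2 the lower in each pair. The fitted log2 ratio in M8/M3 was -0.47 ± 0.07 (SE, n = 2 arrays, limma adjusted p = 0.00709), so that levels fell by 27.6%. In F8/F3 it was -0.50 ± 0.07 (adjusted p = 0.00546), so that levels fell by 29.3%. A second bright probe of Rps12 gave -0.48 in M8/M3 and -0.53 in F8/F3.

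Among large subunit proteins, Rpl12, which forms the base of the stalk, had arrays of -0.31 and -0.37 in M8/M3 and of -0.32 and -0.52 in F8/F3. Its fitted values were -0.34 ± 0.04 (SE, n = 2 arrays, adjusted p = 0.00196) and -0.42 ± 0.04 (adjusted p = 0.000866). Rpl3, which lies near the peptidyl transferase center, read -0.34 and -0.41 in M8/M3, for a fitted value of -0.37 ± 0.03 (n = 2 arrays, adjusted p = 0.000501). In F8/F3 Rpl3 read -0.16 and -0.28, and the fitted value was -0.22 ± 0.03 (adjusted p = 0.00344). Rpl21 read -0.55 and -0.44 in M8/M4, its strongest decrease, where levels fell by 29.1% (adjusted p = 0.00173, n = 2 arrays, limma). The probe of Rpl21 was the dimmest of the 77, with processed signals of 54.8 to 116 in the age comparisons. With normexp background correction and loess it had -0.29 in M8/M4, and in M8/M3 it went from -0.40 to -0.20 and was not called (adjusted p = 0.0717).

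Among the genes called, Rpl15 and Rpl41 were also among the 5 lowest in M8/M3, at -0.44 and -0.39. The 2 probes of Rpl15 disagreed: the brighter one read -0.38 and -0.49 on the M8/M3 arrays, and the other read 0.20 on each. With the mean of both probes Rpl15 was not called in M8/M3 (-0.12, adjusted p = 0.43). Of 49 genes with at least 2 bright probes, all bright probes had the same sign in 45 genes in F8/F3, 40 in M8/M3, 42 in F8/F4 and 44 in M8/M4, but in the sex comparisons in 33 at 8 wk, 37 at 4 wk and 22 at 3 wk. In F8/F3 the other genes with the strongest decreases among those called were the X-linked Rpl36a (-0.38), Rpl10a (-0.36) and Rpl4 (-0.35). In F8/F4, again among the genes called, they were Rpl7a (-0.29), Rps24 (-0.28), Rpl12 (-0.28) and Rplp2 (-0.27), and in M8/M4 Rpl41 (-0.26), Rpl36a (-0.25) and Rpl3 (-0.25).

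**Figure D3:**
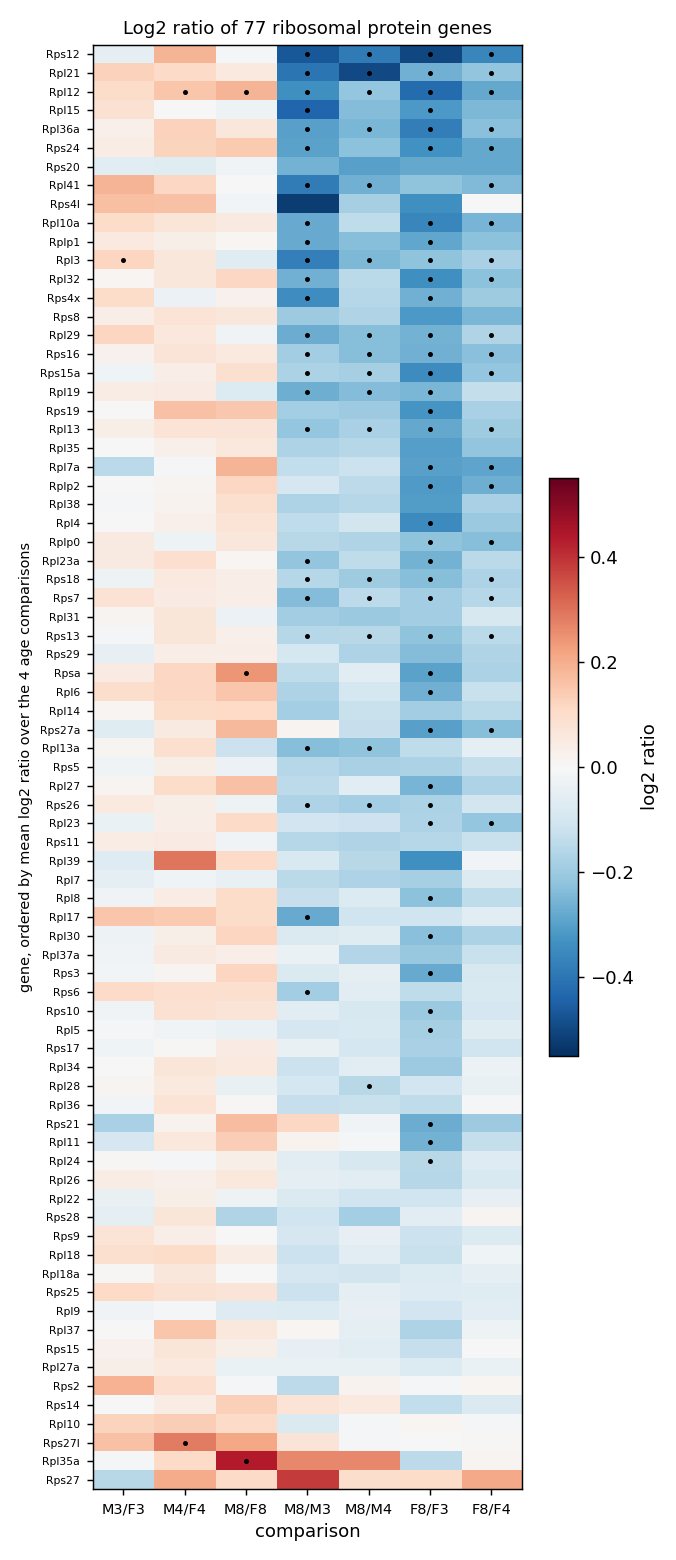
Fitted log2 ratio (colour) of the 77 genes (rows, ordered by their mean over the 4 age comparisons) in the 7 comparisons (columns); black dots mark an adjusted p below 0.05. Blue covers most of the 4 right-hand columns from Rps12 at the top, with 39 dots in F8/F3 and 25 in M8/M3, and at the bottom Rps27 is red in all 4 and Rpl35a in the male columns, without dots.

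The decrease was spread over the parts of the ribosome. In F8/F3, 21 of 43 large subunit genes (median -0.22) and 15 of 29 small subunit genes (median -0.22) were lower, as were all 3 stalk genes. In M8/M3 the counts were 14 of 43 (median -0.14), 10 of 29 (median -0.15) and 1 of 3. Over all probes tested, 14.9% were lower in F8/F3 and 18.2% in M8/M3. The acidic stalk proteins recruit elongation factors to the ribosome, and Rplp0 is widely used as a reference gene. Rplp0 read -0.10 and -0.34 in F8/F3 and -0.10 and -0.21 in M8/M3, so its 4 values were all below 0. Its fitted decrease passed the test in females, at -0.22 in F8/F3 (adjusted p = 0.0269) and -0.23 in F8/F4 (adjusted p = 0.0221). In males the values were -0.15 in M8/M3 (adjusted p = 0.0909) and -0.17 in M8/M4 (adjusted p = 0.0735), which did not pass.

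Rplp1 was lower in M8/M3 (-0.28, adjusted p = 0.0297) and F8/F3 (-0.29, adjusted p = 0.026). Rplp2 was lower in F8/F3 (-0.31) and F8/F4 (-0.27) and had -0.09 in M8/M3. Rpsa, a small subunit protein that was first described as a laminin receptor, read 0.01 and -0.59 on the F8/F3 arrays (fitted -0.29, adjusted p = 0.0153), with replicate 1 near 0. Rps19, the gene most often mutated in Diamond-Blackfan anemia, was lower in F8/F3 (-0.32, adjusted p = 0.0089) and had -0.19 in M8/M3 (adjusted p = 0.0648).

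The X-linked genes did not move as a block. Rpl36a was lower in all 4 age comparisons, and Rps4x was lower in M8/M3 (-0.34, adjusted p = 0.0144) and F8/F3 (-0.26, adjusted p = 0.0373). Rpl39 had -0.34 in F8/F3 and -0.08 in M8/M3, with a larger standard error (0.11) than most, and was not called. Rpl10 had values of -0.08 to 0.01 in the 4 age comparisons. Its arrays had opposite signs in every comparison, for example -0.32 and 0.16 in M8/M3, and the red channel was the higher on all 14 arrays. Among the paralogues, Rps27l, a p53-inducible relative of Rps27, had 0.00 in F8/F3 and 0.07 in M8/M3, and Rps4l had -0.52 in M8/M3 from arrays of -0.27 and -0.78 (adjusted p = 0.0617).

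Rps27 was the 1 gene of the 77 with fitted values above 0 in all 4 age comparisons. From 3 wk it read 0.23 and -0.03 in females and 0.68 and 0.09 in males, and from 4 wk 0.66 and -0.25 in females and 0.31 and -0.12 in males. Its arrays agreed in sign in M8/M3 only, and none of the 4 values passed the test (fitted 0.38 ± 0.16 in M8/M3, n = 2 arrays, limma adjusted p = 0.177). Its second probe gave 0.36 there.

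**Figure D4:**
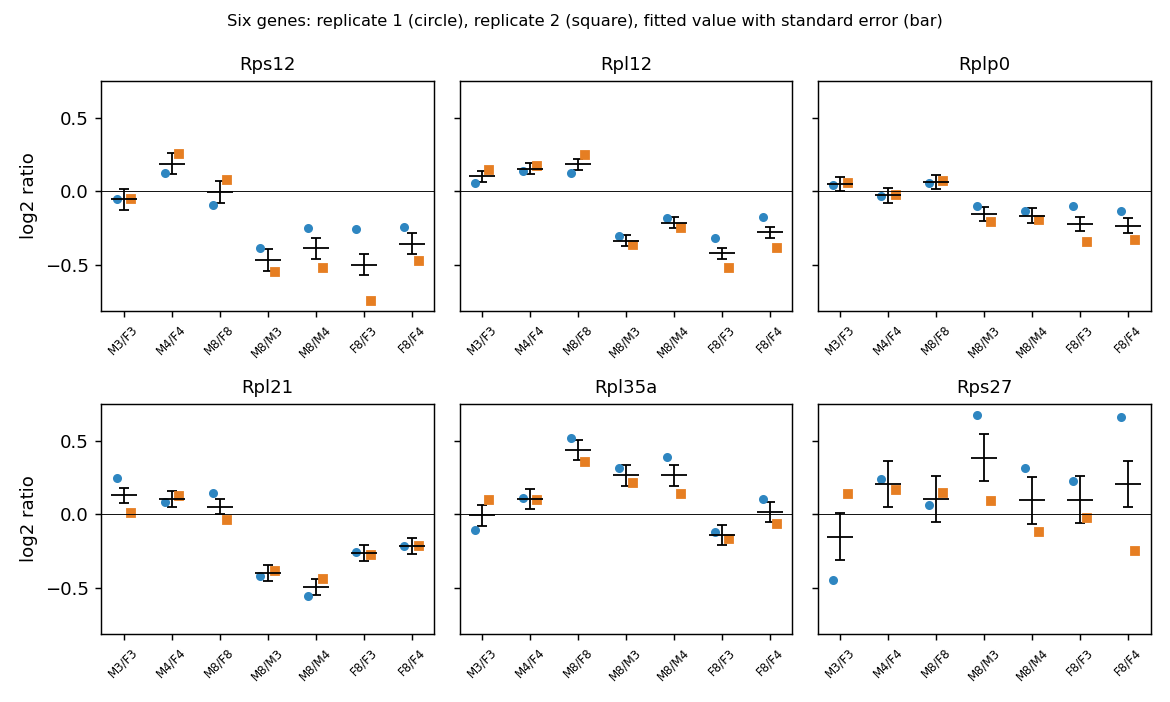
Log2 ratio (y axis) of 6 genes on the 2 arrays of each comparison (x axis; circle, replicate 1; square, replicate 2), with the fitted value and its standard error as a bar. Rps12, Rpl12, Rplp0 and Rpl21 are below 0 on all 8 age arrays, Rpl35a is above 0 in males (0.14 to 0.39) but not on the F8/F3 arrays, and Rps27 varies between its arrays (0.66 and -0.25 in F8/F4).

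The values that can be derived for 3 to 4 wk, as differences of comparisons that share the 8 wk group, were small. In M4 over M3 the median was -0.01 and 0 genes were called by limma, against 0.467% of all probes called. At an unadjusted p below 0.05 there were 3 genes. In F4 over F3 the median was -0.07, with 73 of 77 genes below 0, and 0 were called, against 0.142% of all probes called. At an unadjusted p below 0.05 there were 7 genes. No share of all probes was taken at the unadjusted p, here or for the differences between the sexes below.

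The decrease was seen in both sexes, and the genes called overlapped. From 3 to 8 wk, 21 of 77 genes were lower in both sexes (27.3%, against 11.2% of all probes). They were 84% of the genes lower in males and 53.8% of those lower in females, where over all probes these shares were 60.6% and 72%. From 4 to 8 wk, 13 were lower in both (16.9%, against 6.85% of all probes). They were 76.5% of the male and 61.9% of the female genes, beside 51.2% and 73% over all probes. The male and female comparisons share no pools. Across the 77 genes the correlation of their log2 ratios was 0.565 from 3 to 8 wk and 0.605 from 4 to 8 wk, a description across genes that share probes and dye orientation and are not independent replicates.

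Whether age acted differently by sex was tested as the male change minus the female change. From 3 to 8 wk, 0 of 78 genes passed at the adjusted p by limma, where 5.85% of all probes passed. At an unadjusted p below 0.05 there were 14 genes. From 4 to 8 wk, 0 of 77 passed at the adjusted p, where 1.98% of all probes did, and 3 genes had an unadjusted p below 0.05. The median difference was 0.07 from 3 to 8 wk, with the female decrease the larger, and 0.00 from 4 to 8 wk. M8/M3 and F8/F3 were scanned on different days, whereas M8/M4 and F8/F4 shared a day, as did the 3 sex comparisons. Taken as M8/F8 minus M3/F3, the 3 to 8 wk difference had a median of 0.03. At the adjusted p 0 of 78 genes passed, against 6.46% of all probes, and 10 genes had an unadjusted p below 0.05. Taken as M8/F8 minus M4/F4, the 4 to 8 wk difference had a median of -0.02. At the adjusted p 0 of 77 passed, against 1.75% of all probes, and 4 genes had an unadjusted p below 0.05. The 4 groups of each age span form a loop of 4 comparisons. Going around it should return to 0 if a replicate number stands for the same pools, and a dye offset common to all arrays cancels. Over the 77 genes the 3 wk loop missed 0 by a median of -0.01 in replicate 1 and 0.09 in replicate 2, and the 4 wk loop by -0.01 and 0.05. The standard deviations over genes were 0.06 to 0.09, and the largest miss of a gene was 0.40. Rps21 came nearest to the threshold, with a difference of 0.39 (adjusted p = 0.0523), from 0.12 in M8/M3 and -0.27 in F8/F3. It passed with the replicate block (adjusted p = 0.0479) and in the fit on probes well above background (adjusted p = 0.0471), and from M8/F8 minus M3/F3 it had 0.35 (adjusted p = 0.0714).

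**Figure D5:**
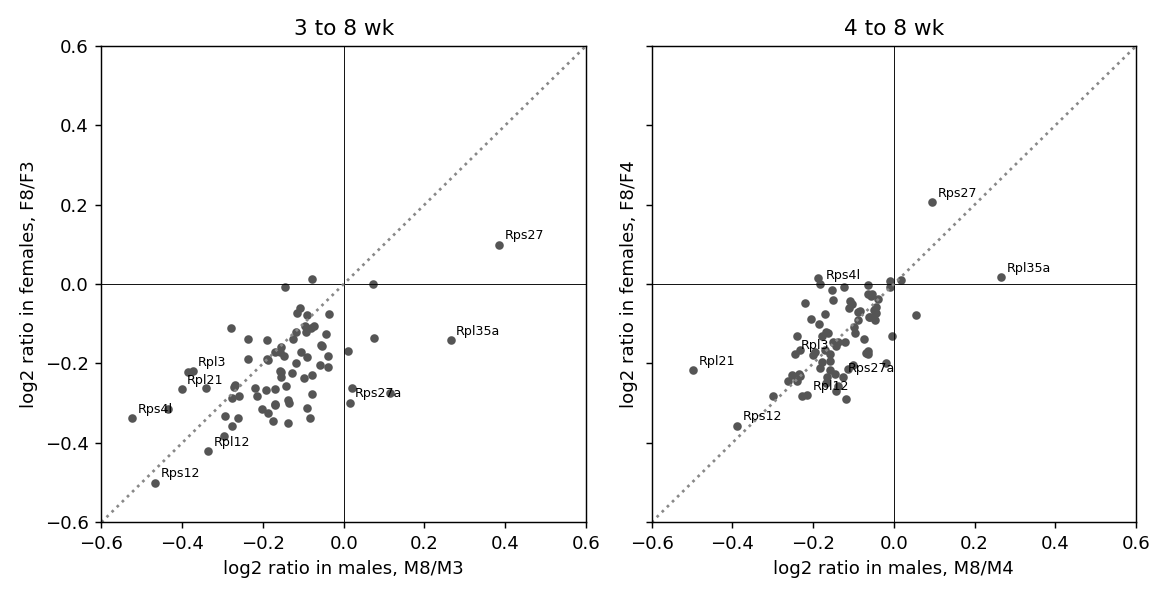
Fitted log2 ratio of the 77 genes in males (x axis) against females (y axis), from 3 to 8 wk (left) and from 4 to 8 wk (right); the dotted line marks equal change. Most points lie below 0 on both axes (68 of 77 on the left, 71 of 77 on the right), and Rpl35a lies to the right of the others at 0.26 in males on each panel, except Rps27 on the left.

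Rpl35a, a large subunit protein also mutated in Diamond-Blackfan anemia, was the gene of the 77 in which the sexes differed most from 3 to 8 wk. It read 0.32 and 0.21 on the M8/M3 arrays and -0.12 and -0.17 on the F8/F3 arrays, so the groups did not overlap. The difference was 0.41 (95% confidence interval 0.17 to 0.64), with an unadjusted p of 0.00478 and a limma adjusted p of 0.078. From M8/F8 minus M3/F3, all scanned on 1 day, the difference was 0.44 (unadjusted p = 0.00302, limma adjusted p = 0.0592). At 8 wk the male over female ratio of Rpl35a read 0.52 and 0.35, for a fitted value of 0.44 ± 0.07 (SE, n = 2 arrays, adjusted p = 0.00789). Without replicate 1 of M8/F8 it was 0.29 and did not pass (limma adjusted p = 0.0588). At 3 wk it read -0.11 and 0.09, on either side of 0. A second bright probe gave 0.52 and 0.60 in M8/F8 (fitted 0.56, adjusted p = 0.0167), 0.31 in M8/M3 and -0.28 in F8/F3. The M8/M3 and M8/M4 values of the brighter probe (0.26 each) just missed the threshold (adjusted p = 0.0506 and 0.0505).

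Otherwise few genes differed between males and females of the same age. In M3/F3, 1 of 77 was higher in males (Rpl3, 0.12, adjusted p = 0.0377) against 1.54% of all probes, and 0 were lower against 1.64%. Without either array of M3/F3 the count was 0. In M4/F4, 2 were higher in males (Rpl12, 0.15, and Rps27l, 0.28) against 3.17%, and 0 were lower against 4.03%. In M8/F8, 3 were higher in males (Rpl12, 0.19, Rpl35a, 0.44, and Rpsa, 0.24) against 10.3%, and 0 were lower against 10.2%. The 2 arrays of Rpsa read -0.01 and 0.50, and without replicate 1 of M8/F8 the count was 0. The calls of Rpl3 in M3/F3 and of Rpl12 in M4/F4 were each lost under 14 of the alternatives, among them those with a 1.5-fold threshold or error-weighted means. Rpl12 read 0.13 and 0.24 in M8/F8 and 0.14 and 0.17 in M4/F4. The medians of the genes were 0.01, 0.06 and 0.05 at 3, 4 and 8 wk, and 69 of 77 genes were above 0 in M4/F4. In M8/F8 the macrophage markers were lower in males for 9 of 9 (median -0.56), and in M4/F4 for 4 of 9 and in M3/F3 for 1 of 9. Of the other markers in M8/F8, 3 of 8 hepatocyte, 3 of 10 lymphocyte, 2 of 8 mesenchymal and 1 of 11 mitosis markers were lower in males. In the same comparison 1 lymphocyte and 1 erythroid marker were higher. In M4/F4, 3 of 8 mesenchymal, 1 of 8 hepatocyte and 1 of 10 lymphocyte markers were lower in males, and 1 erythroid and 1 bile duct marker were higher. The part of these cell types in the sex comparisons was not tested.

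The other genes of ribosome production were examined as lists. Shares are set beside those of all probes, which were 18.2% lower and 20.7% higher in M8/M3 and 14.9% and 15.8% in F8/F3. Of 86 ribosome assembly factors, 23 were lower (26.7%) and 4 higher (4.65%) in M8/M3, and 42 were lower (48.8%) and 3 higher (3.49%) in F8/F3. The nucleolar box C/D proteins Nop58 (-1.06 in M8/M3, -1.25 in F8/F3) and Nop56 (-1.02 in F8/F3) and the nucleolar phosphoprotein Nolc1 (-0.80 and -1.18) had decreases larger than that of any ribosomal protein gene called. The list had a median of -0.25 in females (F8/F3) and -0.14 in males (M8/M3). From 4 wk, 13 of 86 were lower in each sex (15.1%, against 13.1% of all probes in M8/M4 and 9.19% in F8/F4), with medians of -0.08 in M8/M4 and -0.07 in F8/F4. In M8/F8, 18 of 84 assembly factors were higher in males (21.4%, against 10.3% of all probes) and 0 lower. Of 11 genes of RNA polymerase I transcription, 3 were lower (27.3%) and 0 higher in M8/M3, and likewise 3 and 0 in F8/F3, with Rrn3, the initiation factor, at -0.34 and -0.57. From 4 wk, 2 of the 11 were lower in M8/M4 (18.2%) and 1 in F8/F4 (9.09%, near the 9.19% of all probes).

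Of 7 measured ribosomal protein genes named outside the rule, 4 were lower in F8/F3 (57.1%) and 2 in M8/M3 (28.6%), and 0 were higher in either. From 4 wk, 3 were lower in F8/F4 (42.9%, against 9.19% of all probes) and 2 in M8/M4 (28.6%, against 13.1%). Rpl22l1, the paralogue of Rpl22, had -0.70 in F8/F3 and -0.45 in M8/M3, and Rack1, a scaffold on the small subunit, had -0.45 and -0.29. Of 77 mitochondrial ribosomal proteins, 15 were lower (19.5%, near the 18.2% of all probes) and 3 higher (3.9%) in M8/M3, with a median of -0.06. In F8/F3, 22 were lower (28.6%, against 14.9%) and 1 was higher (1.3%), with a median of -0.08. From 4 wk, 7 were lower in M8/M4 (9.09%, against 13.1%) and 9 in F8/F4 (11.7%, against 9.19%), with medians of -0.02 and -0.03.

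Translation factors had calls in both directions. Of 39, 7 were lower in M8/M3 (17.9%, near the 18.2% of all probes) and 5 higher (12.8%, against 20.7%). In F8/F3, 10 were lower (25.6%, against 14.9%) and 5 higher (12.8%, against 15.8%). The helicase Eif4a1 had -0.50 in F8/F3 while its paralogue Eif4a2 had 0.79. Among 18 regulators of mTORC1 and Myc, 5 were higher (27.8%, against 20.7% of all probes) and 3 lower (16.7%, against 18.2%) in M8/M3. In F8/F3, 4 were higher (22.2%, against 15.8%) and 2 lower (11.1%, against 14.9%). The 3 largest changes called in M8/M3 were those of Mycl, a Myc relative (0.97), the translation repressor Eif4ebp1 (0.67) and the mTORC1 inhibitor Tsc1 (0.63). In F8/F3 they were Mycl (1.04), Mycn, another Myc relative, which was lower (-0.996), and Tsc1 (0.58).

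Markers of dividing cells, and most of those of blood-forming cells, were lower at 8 wk on the same arrays. All 12 mitosis genes were lower in each of the 4 age comparisons, with medians of -3.47 in M8/M3 and -3.15 in F8/F3. The summed signal of the 12 was 12372 to 27134 in the 3 wk pools and 976 to 2967 in the 8 wk pools, and none was at 0. Of the erythroid markers tested, 7 of 10 were lower and 1 higher in M8/M3, and 8 of 11 were lower and 0 higher in F8/F3 (median -1.61 in F8/F3), and their summed signal was 149987 to 478392 at 3 wk and 117686 to 188893 at 8 wk. Epb42 was well above background in 16 of 28 channels and Rhag in 8, while the hemoglobin genes were so in all 28. Mesenchymal markers were lower for 6 of 9 in each age comparison, and 0 were higher. Of 9 macrophage markers, males had 9 lower from 4 wk and 6 from 3 wk, females had 3 and 2, and 0 were higher. Of 11 lymphocyte markers, 6 were lower and 1 higher in M8/M3, and 0 were lower and 1 higher in F8/F3. Of 8 hepatocyte markers, 2 were higher and 2 lower in M8/M3 and 1 was higher and 0 lower in F8/F3. Of 7 bile duct markers, 2 were lower and 1 higher in M8/M3, and 1 was lower and 1 higher in F8/F3. The part of these cell types in the decrease of the ribosomal protein genes was not tested.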

How the data were processed

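Members and lists were chosen with earlier results of these data known. The authors made the scanner files with Feature Extraction 10.7.1.1 (header build mm9), with linear and LOWESS dye normalization. As deposited they hold spot intensity (median and processed) and the log10 ratio of red over green with its log10 error, and the deposited log10 series table equalled these ratios.

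Ratios were converted to log2, turned by the labelled dyes and averaged over spots of a probe. Of 39429 probes, 26055 were named through RefSeq accessions. In R 4.3.3, limma 3.58.1 was fitted to all probes of the 14 arrays, with 7 comparison coefficients and a dye term. A check on simulated data asked only for little bias and for recovery of changes larger than those of the genes called here. It set no limit on false calls. P-values were adjusted by Benjamini-Hochberg over all probes and the 7 comparisons, or within each difference of comparisons. Precision is limited by having 2 arrays for each comparison, and no source used here says whether the pools came from separate litters. P-values and standard errors measure the spread left after the dye term, pooled over the 14 arrays taken as independent. The dye term takes up differences between replicates 1 and 2 that run with dye orientation, so these can be large beside a standard error. Rpl13 in M8/M4 read 0.02 and -0.38, with a standard error of 0.04.

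For each comparison the 5 most positive and 5 most negative genes called with the same sign on both arrays could be named, with the stalk, Rpsa, Rps27a, Rps19, X-linked and paralogue genes and up to 3 genes of each list. Rpl35a beyond M8/F8, Rps21, and the second probes and sequences shown were chosen after values were seen. Alternatives changed the background correction (normexp with an offset of 50 on pixel medians, and loess), centring, dye term, covariance of pools, blocks, probes, weights, adjustment and filters, or left out each array. The centring on probes with a signal over 10000, the fit on probes well above background, the error-weighted mean with no fold threshold and the sex by age difference from the sex comparisons were added after seeing the data.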

Additional observations from a re-analysis of the deposited data

Results flagged for a closer look

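Rpl35a went opposite ways in the sexes from 3 to 8 wk: both M8/M3 arrays were above 0 (0.32 and 0.21) and both F8/F3 arrays below 0 (-0.12 and -0.17). The difference was 0.41 ± 0.10 (SE) with an unadjusted p of 0.00478, and it did not pass the adjustment over all probes (limma adjusted p = 0.078). Its second probe gave a difference of 0.59 (adjusted p = 0.0943). The scan days of M8/M3 and F8/F3 differed. Taken as M8/F8 minus M3/F3, which shared a day, the difference was 0.44 (adjusted p = 0.0592). From 4 to 8 wk it was 0.25 as M8/M4 minus F8/F4 (adjusted p = 0.348) and 0.33 as M8/F8 minus M4/F4 (adjusted p = 0.227), each within 1 day.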

How the results depend on the processing

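The medians of the genes stayed below 0 in all 4 age comparisons under every alternative run, between -0.27 and -0.15 in F8/F3, -0.18 and -0.14 in M8/M3, -0.18 and -0.09 in F8/F4 and -0.16 and -0.11 in M8/M4. The number of genes called was less stable, and no share of all probes was taken for the 7 comparisons under the alternatives. Main counts were 39 in F8/F3, 25 in M8/M3, 21 in F8/F4 and 17 in M8/M4. Without the dye term they were 19, 13, 7 and 5 in this order, and with normexp and loess the females had 17 from 3 wk and 6 from 4 wk. With the covariance of shared pools F8/F4 had 13. With a 1.5-fold threshold as well, all 7 comparisons gave 0. Error-weighted means at a p below 0.0001 gave 1 in M8/M3 (Rpl39l, which was dim) and 0 elsewhere, with or without that threshold. Leaving out 1 array of a comparison gave 11 to 28 in F8/F3, 7 to 10 in M8/M3, 1 to 7 in F8/F4 and 4 in M8/M4.

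The sex comparisons rested on few calls. M3/F3 had 1, and 0 without the dye term, with normexp and loess, under either centring, within-comparison adjustment, pool covariance or the fit on probes well above background, or without either array, and 2 with the mean of all probes. M4/F4 had 2, and 0 without the dye term, with within-comparison adjustment or with pool covariance, 1 under either centring, with normexp and loess, with the slide block or in the fit on probes well above background, and 0 to 1 without an array. M8/F8 had 3, and 1 without the dye term, 5 with the mean of all probes, 5 with the slide block and 0 to 3 without an array.

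With the replicate block, the counts were 46, 30, 27 and 21 in the age comparisons in the same order, 6 in M8/F8 (5 higher, 1 lower) and 1 in the 3 to 8 wk difference between the sexes (Rps21, adjusted p = 0.0479). That difference also had 1 (Rps21, adjusted p = 0.0471) in the fit on probes well above background, and 0 under the other alternatives. No source used here says whether a replicate number stands for the same pool across comparisons. The difference of the 2 arrays correlated at 0.59 and 0.614 for age comparisons sharing an 8 wk group, and at 0.322 to 0.402 for the others. Among the sex comparisons, which share no group, it was 0.253 to 0.352. Between the 2 kinds, whose replicate 1 had opposite dye orientations, it was -0.306 to -0.24 without a shared group. It was -0.489 to -0.394 where the shared group was first-named in the sex comparison and second-named in the age comparison or the reverse, and -0.0771 to 0.00349 otherwise. The correlations thus followed the shared groups, as pools reused by replicate number would give, whereas the main fit takes arrays as independent. No gene tracked changed sign. Of 425 values for single genes under the alternatives, 284 kept their call and 141 lost it. None of these genes passed 1.5-fold or the error-weighted p below 0.0001, so each lost its call in every alternative with those thresholds. The depth of arrays is not a count, and 2 arrays per comparison set the limit. The cause of the moves in the counts was not tested.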
